A study of Mus musculus with 12 samples.

Results

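Wnt5a, Wnt3, Wnt4 and Wnt7b, which encode secreted ligands, were followed together with the receptor genes Ror1, Ror2, Fzd2 and Fzd7 and with Axin2 and Sp5, feedback targets of the canonical pathway. These 10 genes, out of 18194 measured, were read by 22 of the 34958 probe sets that carry a single gene symbol. They were selected on measured values, with Wnt5a chosen by its high intensity in knockout cells on day 6, so every value that uses an array of day 6 is given for them as a description, with no test. The question was whether Wnt5a stood alone or moved with a wider change of Wnt genes. The cells were mouse embryonic stem (ES) cells with both alleles of Thap11, the gene for the zinc finger protein Ronin, flanked by loxP sites (Roninflox/flox). Control cells carried these alleles alone, and the genotype called knockout here was CreERT2; Roninflox/flox, with a Cre recombinase that tamoxifen activates. Tamoxifen at 0.25 µM was given to both genotypes, RNA was taken on days 1.5, 3 and 6, and cultures were split on day 4, with 2 arrays in each of the 6 groups. CreERT2 marked all knockout samples and none of the controls, so the Cre and the Thap11 deletion cannot be told apart. The promoter that drives it, and whether each genotype is 1 clone, are not given in the sources used here.

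Wnt ligands are lipid-modified secreted proteins that bind Frizzled receptors at the cell surface. In the canonical branch, binding with the co-receptors Lrp5 or Lrp6 stops the breakdown of beta-catenin, which enters the nucleus and acts with TCF/LEF factors on targets such as Axin2 and Sp5. Wnt5a is best known as a ligand of the non-canonical branch, in which Ror1 and Ror2 serve as receptors and which bears on cell polarity and movement. In mouse ES cells canonical Wnt signalling is known to favour self-renewal.

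The promoters of both feedback targets are shown because these genes read out canonical signalling. Each window runs from 250 bases before to 50 bases after the annotated start, on the plus strand of GRCm38.p6, from RefSeq. Capitals mark the core of the TCF/LEF site, CTTTGAT, wherever it occurs on either strand. The Sp5 window is chr2:70474673-70474972 and the Axin2 window is chr11:108920099-108920398, which lies inside the annotated span of Axin2 (chr11:108917828-108950783).
Sp5: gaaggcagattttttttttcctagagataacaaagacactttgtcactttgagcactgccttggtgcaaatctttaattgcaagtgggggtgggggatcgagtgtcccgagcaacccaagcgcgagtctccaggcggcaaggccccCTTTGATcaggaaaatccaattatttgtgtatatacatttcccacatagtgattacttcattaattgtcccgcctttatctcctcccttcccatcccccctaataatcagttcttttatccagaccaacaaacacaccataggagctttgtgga
Axin2: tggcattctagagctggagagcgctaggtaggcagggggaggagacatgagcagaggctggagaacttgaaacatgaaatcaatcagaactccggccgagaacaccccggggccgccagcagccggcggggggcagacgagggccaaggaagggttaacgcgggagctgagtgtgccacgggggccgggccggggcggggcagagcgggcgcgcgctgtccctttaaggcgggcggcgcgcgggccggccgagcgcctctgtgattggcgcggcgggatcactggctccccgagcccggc
The Sp5 window held the core once, on the strand of the gene, with its first base at position -104 from the start. No match was found in the Axin2 window. Promoters of 7 members were matched by symbol (Fzd7, Sp5, Ror1, Wnt4, Wnt3, Axin2 and Ror2), and Sp5 was the only one of them with the core. Over all 32851 promoters of the same length, 3.73% held it. The core of the Ronin/HCF-1 element, searched on either strand, was in 0 of the 7 windows and in 1.47% of all promoters, so it did not overlap the other motif in any of these 7. A match is a description of the letters and no match says only that they are not in this window.

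Thap11 itself checked the labels. Its intensity was 1222 ± 56.9, 1284 ± 8.13 and 1344 ± 54.0 in controls of days 1.5, 3 and 6 (mean ± SD, n = 2) and stood at 27.9%, 7.90% and 3.80% of those levels in knockout cells. Correlations between the 2 arrays of a group ran from r = 0.99816 to 0.99856 over all genes. Array medians were 44.36 to 44.72 on day 3 and 42.37 to 43.04 on the other days. The summed intensity of 12 ES cell markers, among them Pou5f1 and Nanog, lay between 81318 and 85662 on every array. Single markers still differed between genotypes. Those called higher and lower were 2 and 2 on day 1.5, 2 and 3 on day 3, and 1 and 2 on day 6. All genes gave 9.91%, 23.4% and 32.5%. On day 6 Klf4 averaged 4350 in controls and 3206 in knockout cells, and Tbx3 averaged 922 and 1330. Whether paired arrays represent separate cultures is not given in the labels, and p-values then measure only the spread between these samples, which may be technical. A change of RNA level can reflect the amount per cell or the share of cells that express the gene, and these cannot be told apart here.

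Among the main probe sets of the members, that of Wnt5a had the widest range as a fold between its lowest and highest array. This probe set (1436791_at, the brightest of 4) read 25.1 and 24.5 in controls of day 1.5 and 26.9 and 24.9 in knockout cells of that day. On day 3 it read 12.2 and 15.6 in controls and 41.2 and 27.5 in knockout cells. On day 6 the controls gave 11.7 and 19.0 and the knockout cells 104 and 111. The groups lay together on day 1.5 and apart on both later days, with the knockout arrays of day 6 far above all others.

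The knockout difference of Wnt5a on day 1.5 was 0.06 ± 0.24 (log2 fold change ± SE, limma adjusted p = 0.919). On day 3 Wnt5a rose by 1.29 ± 0.24 (limma adjusted p = 0.00403). The effect on day 3 exceeded that on day 1.5 by 1.23 ± 0.33 (limma adjusted p = 0.0378), a call lost without any one of 6 of the 8 arrays, where the adjusted p reached 0.118 (without replicate 1 of the day 3 controls, log2 1.06). On day 6 the knockout mean was 107 ± 5.02 against 15.3 ± 5.14 in controls (SD, n = 2), a difference of mean log2 intensity of 2.85 ± 0.24, or 7.19-fold between geometric means.

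The day 3 controls enter both the knockout comparison of that day and the control time course. From day 1.5 to day 3 the control level of Wnt5a fell by 0.85 on the log2 scale (SE 0.24, limma adjusted p = 0.0259). That call was lost without either day 1.5 control (-0.83 and -0.87) or without replicate 1 of day 3 (-0.67), with adjusted p of 0.105, 0.0845 and 0.145, and with the mean of all probe sets (-0.21, adjusted p = 0.0871). In knockout cells the difference between these days was 0.38 ± 0.24 (limma adjusted p = 0.286). Against the controls of day 1.5 in place of day 3, the knockout cells of day 3 were 0.44 ± 0.24 higher (limma adjusted p = 0.236). Of the day 6 controls, both arrays lay below both day 1.5 controls, whereas the knockout cells of day 6 exceeded those of day 1.5 by 2.05 ± 0.24, which rests on the knockout arrays alone.

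The 4 probe sets of Wnt5a did not all give this picture. Probe set 1448818_at read 18.6 and 23.1 in controls of day 6 and 42.7 and 39.0 in knockout cells, a difference of 0.98 ± 0.16. On day 3 it differed by 0.40 ± 0.16 (limma over all probe sets, adjusted p = 0.145), with controls at 19.6 and 16.2 and knockout cells at 21.6 and 25.6. Probe sets 1456976_at and 1437673_at stayed between 8.19 and 12.9 on all arrays, with day 6 differences of 0.01 ± 0.09 and 0.36 ± 0.12. For scale, 10.5 was the 10th and 16.1 the 25th percentile of all deposited intensities. By mean log2 intensity, Wnt5a, Wnt3, Ror1 and Sp5 were among the dimmest 40% of genes, and the other 6 members were not. On day 6 the arrays of the genotypes did not overlap in the brighter pair of probe sets. Nor did they in the dim 1437673_at, at 9.47 and 9.17 in controls and 12.9 and 11.1 in knockout cells. The mean over all 4 probe sets gave a difference of 1.05 on day 6 and 0.43 on day 3.

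**Figure D1:**
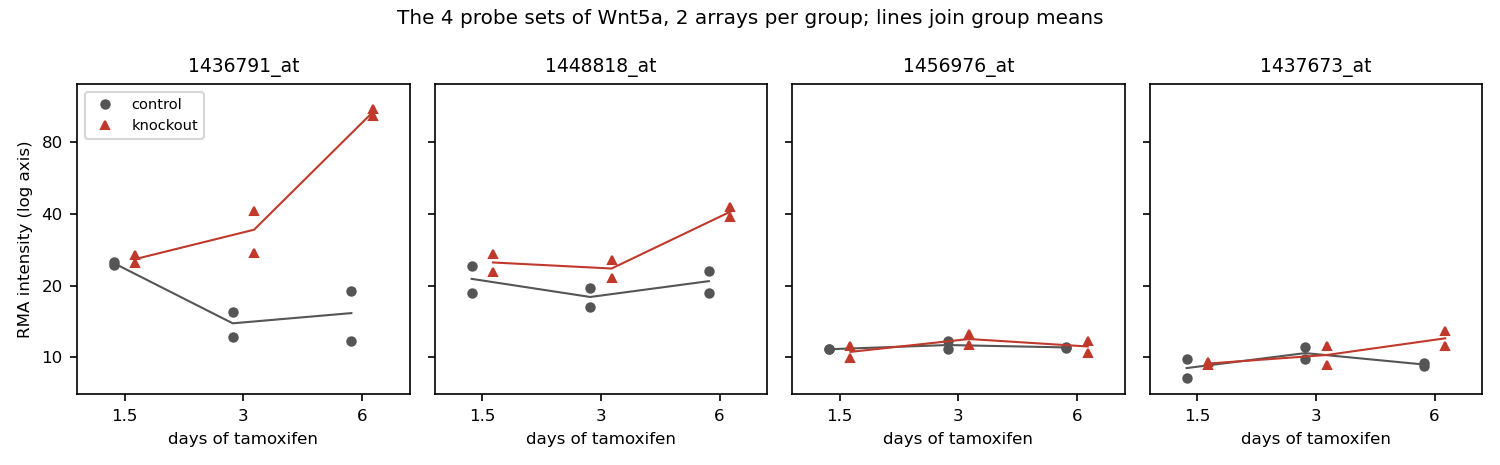
Intensity of each of the 4 Wnt5a probe sets (log axis) by days of tamoxifen (evenly spaced, not to scale); circles are control arrays, triangles are knockout arrays (2 per group) and lines join group means. In 1436791_at the knockout arrays of day 6 reach 104 and 111, in 1448818_at 42.7 and 39.0, and the other probe sets stay between 8.19 and 12.9.

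Markers of fibroblasts or feeder cells, a cell type in which Wnt5a is known to be expressed, were read beside it. The summed intensity of the 18 measured markers was 2093 to 2184 in controls and 1201 to 1229 in knockout cells on day 1.5, 972 to 976 and 1286 to 1298 on day 3, and 2900 to 3123 and 3765 to 3842 on day 6. Most of the day 6 sums came from Tagln (1214 in controls and 1601 in knockout cells) and Acta2 (1055 and 1601), genes of the contractile cytoskeleton. The matrix genes Col3a1 (12.3 and 11.3) and Lum (11.6 and 11.9) were near the bottom of the intensity scale on day 6, and Col1a1 (71.4 and 44.0), Col1a2 (81.4 and 53.9) and Thy1 (179 and 101) stood lower in knockout cells than in controls. Of the 18 markers, 3 were called higher and 4 lower on that day, when 32.5% of all genes were called. The part of these markers in the Wnt5a result was not tested.

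Wnt4, a ligand with canonical and non-canonical activity, passed the test between genotypes on day 1.5. It read 132 and 122 in controls and 83.5 and 92.9 in knockout cells on day 1.5, 88.6 and 90.1 against 103 and 84.7 on day 3, and 189 and 195 against 169.8 and 174 on day 6. The genotypes were apart on day 1.5, overlapped on day 3, and lay close together at their highest level on day 6. Wnt4 fell by 0.53 on the log2 scale in knockout cells of day 1.5 (SE 0.09, limma adjusted p = 0.00861), and the call was lost without replicate 1 of the controls (-0.47, adjusted p = 0.0608) or of the knockout cells (-0.45, adjusted p = 0.0643). On day 3 the difference was 0.06 ± 0.09 (limma adjusted p = 0.699), as the controls fell by 0.51 on the log2 scale between the days (limma adjusted p = 0.00361). The effects of these days differed by 0.59 ± 0.13 (limma adjusted p = 0.0165), also lost without replicate 1 of the day 1.5 controls (0.53, adjusted p = 0.0599) or knockout cells (0.51, adjusted p = 0.0614). Compared with the day 1.5 controls, the knockout cells of day 3 were 0.44 lower on the log2 scale (-0.44, limma adjusted p = 0.00991).

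Wnt7b, another ligand linked to the canonical branch, moved the other way in the controls. It read 288 and 300.1 in controls and 316 and 340.2 in knockout cells on day 1.5, 411 and 422 against 317 and 328 on day 3, and 318 and 337 against 368 and 376 on day 6. The day 3 controls were the highest arrays, and the order of the genotypes on day 3 was the reverse of that on the other days. In its main probe set Wnt7b fell by 0.37 on the log2 scale in knockout cells of day 3 (SE 0.06, limma adjusted p = 0.00177). The controls had risen by 0.50 ± 0.06 from day 1.5 to day 3 (limma adjusted p = 0.000365), and the knockout cells differed by -0.02 (limma adjusted p = 0.805). The effect on day 3 was below that on day 1.5 by -0.53 ± 0.08 (limma adjusted p = 0.00334), and was -0.25 with the mean of both Wnt7b probe sets (adjusted p = 0.0821). Set against the day 1.5 controls, the knockout cells of day 3 were 0.13 ± 0.06 higher (limma adjusted p = 0.150). The dimmer Wnt7b probe set (1420891_at) read 31.8 and 37.5 in controls of day 1.5. On day 3 it read 37.6 and 35.4 in controls and 37.3 and 34.7 in knockout cells. Its arrays thus overlapped between the control days and between the genotypes of day 3.

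Wnt3, a canonical ligand of the early embryo, was read by a single probe set whose suffix marks probes shared with other transcripts. It lay between 10.3 and 16.0 on all 12 arrays, where 10.5 was the 10th and 16.1 the 25th percentile of all intensities. The genotypes differed by 0.15 ± 0.13 on day 1.5 (limma adjusted p = 0.566), 0.03 ± 0.13 on day 3 (adjusted p = 0.900) and 0.08 ± 0.13 on day 6, within the spread between arrays.

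**Figure D2:**
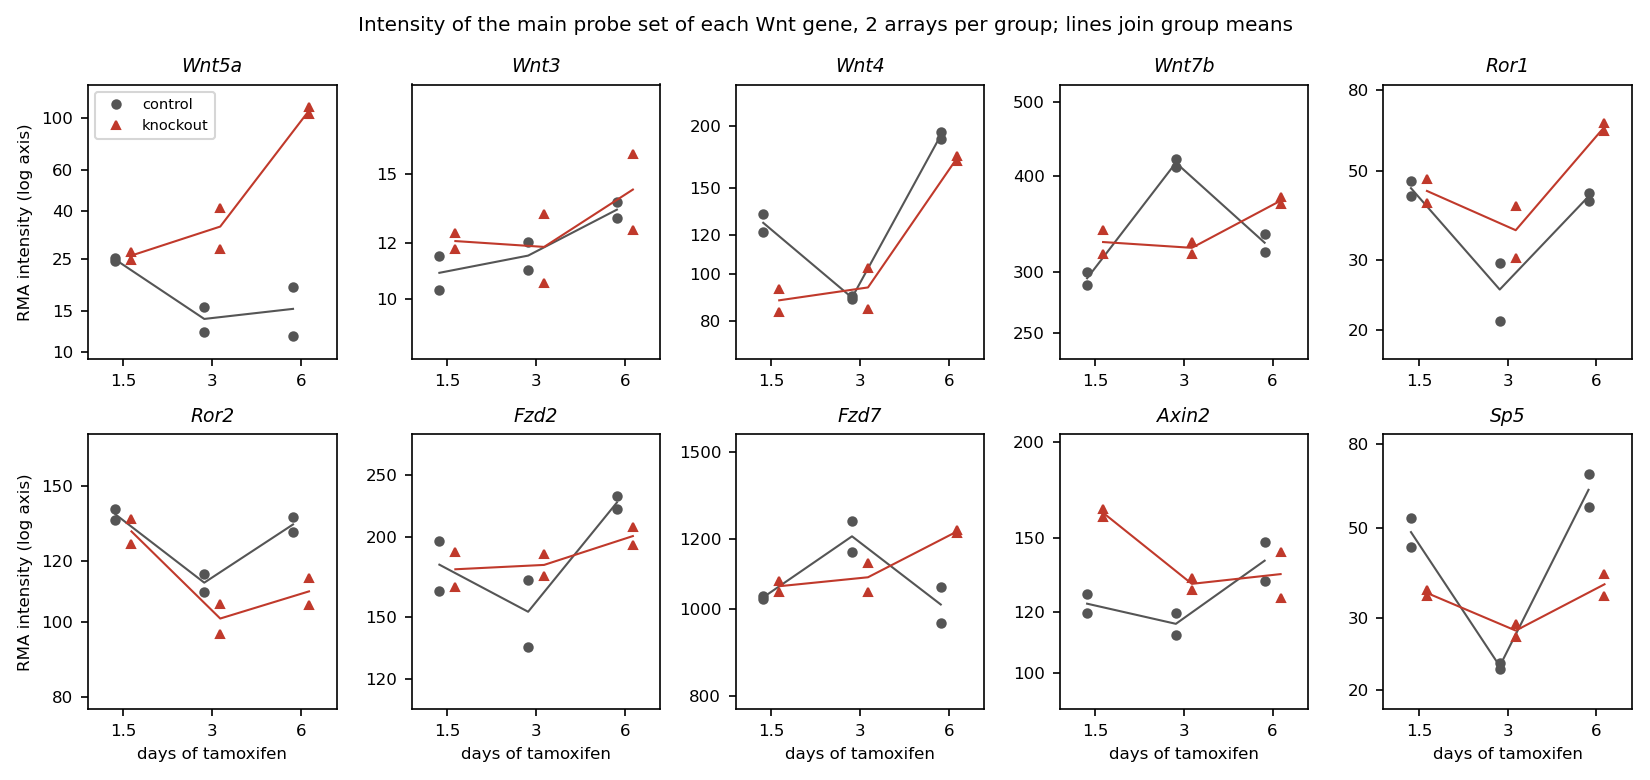
Intensity of the main probe set of each of the 10 Wnt genes (log axis, with its own range in each panel) by days of tamoxifen (evenly spaced, not to scale); circles are control arrays, triangles are knockout arrays (2 per group) and lines join group means. By fold, the genotypes lie furthest apart for Wnt5a on day 6, and Wnt4, Axin2 and Sp5 pass the threshold between genotypes on day 1.5. The control lines of all genes but Wnt3, Wnt7b and Fzd7 are lower on day 3 than on day 1.5.

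Ror1 and Ror2 encode receptor tyrosine kinases that bind Wnt5a, and their main probe sets went different ways on day 6. Ror1 read 47.3 and 43.4 in controls and 41.6 and 47.7 in knockout cells on day 1.5, 21.1 and 29.4 against 40.9 and 30.3 on day 3, and 42.2 and 44.3 against 63.3 and 66.1 on day 6. The genotypes overlapped on day 1.5, were barely apart on day 3 and clearly apart on day 6. Its differences were -0.03 ± 0.17 on day 1.5 (limma adjusted p = 0.950), 0.50 ± 0.17 on day 3 (adjusted p = 0.0630) and 0.58 ± 0.17 on day 6. The day 3 difference passed the threshold without replicate 2 of the controls (0.74, adjusted p = 0.0185) or of the knockout cells (0.71, adjusted p = 0.0277), and with a trend and robust prior (adjusted p = 0.0144). As with Wnt5a, the Ror1 level of controls fell from day 1.5 to day 3, by 0.86 on the log2 scale (SE 0.17, limma adjusted p = 0.00515), and the knockout cells of day 3 stood at -0.37 ± 0.17 from the day 1.5 controls (adjusted p = 0.172). The dimmer probe sets of Ror1 ran from 11.3 to 19.0 and did not pass the threshold on day 1.5 or day 3. On day 6 they averaged 17.1 and 11.8 in controls and 16.5 and 11.5 in knockout cells.

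Ror2 was lower in knockout cells on day 6, at 105 and 114 against 137 and 131 in controls, a difference of -0.29 ± 0.07. On day 1.5 it read 136 and 140.0 in controls and 126 and 136 in knockout cells, and on day 3 it read 109.5 and 115 against 106 and 96.5. The genotype difference was -0.07 ± 0.07 (limma adjusted p = 0.595) and -0.16 ± 0.07 (adjusted p = 0.153) on those days. Both genotypes fell between the days, the controls by 0.29 on the log2 scale (limma adjusted p = 0.0132) and the knockout cells by 0.37 (adjusted p = 0.00636). The control call was lost without replicate 2 of day 1.5 (-0.27, adjusted p = 0.0686) or replicate 1 of day 3 (-0.26, adjusted p = 0.0685). A dimmer probe set of Ror2 (1457128_at) gave 0.45 for the same control comparison (adjusted p = 0.110), so the fall was not seen by both. On day 6 this dimmer probe set averaged 36.5 in controls and 37.1 in knockout cells. With the mean of both probe sets the genotype difference on day 3 was -0.29 (adjusted p = 0.0359) and the knockout change between the days was -0.05 (adjusted p = 0.711).

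Fzd2 and Fzd7 encode Frizzled receptors, and Fzd7 is a known Wnt receptor of ES cells. Fzd2 read 197 and 165 in controls and 167 and 189 in knockout cells on day 1.5, 171 and 135 against 174 and 188 on day 3, and 221 and 232 against 194 and 207 on day 6. Its differences were -0.02 ± 0.13 (limma adjusted p = 0.945), 0.25 ± 0.13 (adjusted p = 0.194) and -0.17 ± 0.13. The genotypes overlapped on day 1.5 and did not overlap on days 3 and 6, with knockout cells above on day 3 and below on day 6. Without replicate 1 of the day 3 controls the difference on day 3 was 0.43. The dimmer Fzd2 probe sets, 1418533_s_at and 1418534_at, averaged 202 and 139 in controls of day 6 and 203 and 136 in knockout cells.

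Fzd7 read 1034 and 1028 in controls and 1076 and 1046 in knockout cells on day 1.5, 1157 and 1256 against 1046 and 1126 on day 3, and 966 and 1058 against 1217 and 1226 on day 6. The arrays of the genotypes did not overlap on any day, with knockout cells above controls on days 1.5 and 6 and below on day 3. The differences were 0.04 ± 0.07 (limma adjusted p = 0.770), -0.15 ± 0.07 (adjusted p = 0.138, or 0.0336 with a trend and robust prior) and 0.27 ± 0.07. Its control level rose by 0.23 ± 0.07 from day 1.5 to day 3 (limma adjusted p = 0.0320), and that call was lost without either day 1.5 control (0.23 and 0.22, adjusted p = 0.107 and 0.109) or replicate 2 of day 3 (0.17, adjusted p = 0.163). The dimmer Fzd7 probe set, at 51.7 to 66.9, differed by -0.22 ± 0.09 on day 1.5 (adjusted p = 0.234) and -0.14 ± 0.09 on day 3 (adjusted p = 0.391). That probe set averaged 60.6 in controls and 60.7 in knockout cells on day 6.

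Axin2 and Sp5, the feedback targets, opposed each other on day 1.5. Axin2, which encodes a scaffold of the beta-catenin destruction complex, read 127 and 119.7 in controls and 159.8 and 164 in knockout cells on that day. It rose in knockout cells of day 1.5 by 0.39 ± 0.08 (limma adjusted p = 0.0177). The call was lost without any one of the 4 arrays, with values of 0.43 and 0.35 without control replicate 1 or 2 and 0.41 and 0.38 without knockout replicate 1 or 2, and adjusted p from 0.0559 to 0.101. With the mean of both Axin2 probe sets, of which the dimmer lay between 10.3 and 14.5, the value was 0.07 (adjusted p = 0.762).

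On the later days Axin2 read 112 and 119.6 in controls and 128 and 133 in knockout cells (day 3), then 132 and 148 against 125 and 144 (day 6). The genotypes were apart on day 3 by 0.17 ± 0.08 (limma adjusted p = 0.171), and they overlapped on day 6, with -0.06 ± 0.08. Between days 1.5 and 3 the knockout level of Axin2 fell by 0.31 on the log2 scale (limma adjusted p = 0.0283), which ended without any one of those 4 arrays (-0.33, -0.29, -0.28 and -0.33, adjusted p from 0.0743 to 0.126), with median centring (-0.21, adjusted p = 0.0772) and with quantile normalization (-0.20, adjusted p = 0.122).

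Sp5, which encodes a zinc finger factor of the Sp family, was read by 1 probe set. It gave 52.7 and 44.8 in controls and 34.0 and 35.2 in knockout cells on day 1.5, 23.4 and 22.5 against 27.0 and 29.0 on day 3, and 56.1 and 67.7 against 34.1 and 38.6 on day 6. The knockout arrays lay below the controls on days 1.5 and 6 and above them on day 3. Sp5, whose promoter with the TCF/LEF core is printed above, fell by 0.49 on the log2 scale in knockout cells of day 1.5 (SE 0.11, limma adjusted p = 0.0229). That call was lost without control replicate 1 (-0.37, adjusted p = 0.133) or knockout replicate 1 or 2 (-0.47 and -0.51, adjusted p = 0.115 and 0.0870). On day 3 the difference was 0.29 ± 0.11 (limma adjusted p = 0.0903), and on day 6 it was -0.76 ± 0.11.

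The control level of Sp5 fell by 1.08 on the log2 scale from day 1.5 to day 3 (SE 0.11, limma adjusted p = 0.000178), the largest change among the members in that comparison, and stood 1.43 ± 0.11 higher on day 6 than on day 3. The knockout effect on day 3 exceeded that on day 1.5 by 0.78 ± 0.15 (limma adjusted p = 0.0101). The knockout cells of day 3 were at -0.80 ± 0.11 against the controls of day 1.5 (adjusted p = 0.00117), so the sign on day 3 depended on which controls were used.

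Counted over the 10 members, 3 passed the threshold between genotypes on day 1.5 (Axin2 higher, Wnt4 and Sp5 lower), where 9.91% of all genes did. On day 3 it was 2 (Wnt5a higher, Wnt7b lower), against 23.4% of all genes. The median log2 difference of the members was 0.01 and 0.12 on those days, and over all genes it was 0.0028 and 0.028. Among the 22 probe sets the counts were 3 and 2, beside 5.07% and 16.5% of all probe sets. No count is given for day 6, whose arrays chose the members. Members stood on both sides of 0 on both days, 5 above and 5 below on day 1.5, and 7 above and 3 below on day 3.

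Between control arrays of days 1.5 and 3, 7 of the 10 members passed the threshold (Wnt7b and Fzd7 higher, Wnt5a, Wnt4, Ror1, Ror2 and Sp5 lower), where 27.3% of all genes did. Markers of primitive or extraembryonic endoderm, another cell type of early cultures, moved in the same comparison. The summed intensity of the 14 measured of 15 was 6463 to 6628 in controls of day 1.5, 3394 to 3460 on day 3 and 6901 to 7064 on day 6, and 10 of the 14 were called lower and 0 higher on day 3 (median log2 difference -0.73). Among them, the transcription factor gene Gata6 averaged 110.2 and 50.7 and the basement membrane gene Col4a1 1704 and 420.3 on these 2 days in controls. In knockout cells the sums were 4526 to 4631, 3007 to 3093 and 6330 to 6384. The lower day 3 level in controls was not particular to this list. The sums of 9 trophoblast markers in controls were 5210 to 5233, 3623 to 3975 and 7976 to 8067 on the same days, with 1 called higher and 3 lower on day 3. Those of the fibroblast or feeder list, given above, were also lowest on day 3 in controls. The part of these markers in the members' changes was not tested. For the members, days 1.5 and 3 in knockout cells gave 2 lower (Ror2 and Axin2), where 20.6% of all genes were called. The knockout effect differed between days 1.5 and 3 for Wnt5a, Wnt4, Sp5 and Wnt7b, which is 4 of 10 beside 15.0% of all genes.

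**Figure D3:**
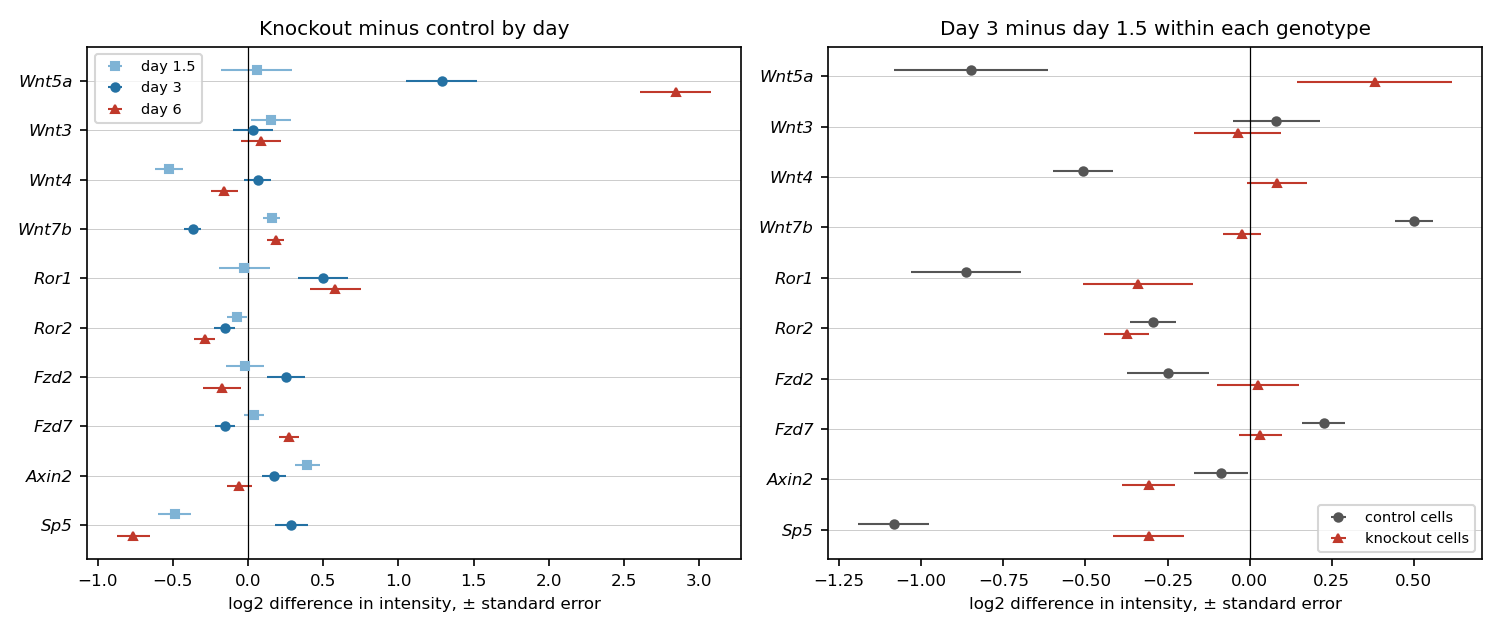
Left, log2 fold change of knockout over control (main probe set, limma estimate with its SE as the bar) for the 10 Wnt genes on days 1.5, 3 and 6. Right, log2 change from day 1.5 to day 3 within control cells and within knockout cells, drawn the same way. In the left panel the day 6 point of Wnt5a, at 2.85, lies far to the right of all others there, which lie between -0.76 and 1.29.

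The wider pathway was read through 111 measured genes out of 115 listed by role, without the members. On day 6, 26 of them were called higher and 15 lower between genotypes, 36.9% beside 32.5% of all genes. That split was 19 higher and 17 lower with the mean of all probe sets and 25 and 20 with quantile normalization. On day 3 it was 17 higher and 10 lower (24.3% beside 23.4%), and on day 1.5 it was 7 and 9 (14.4% beside 9.91%). Against the controls of day 1.5 in place of day 3, the knockout cells of day 3 gave 9 higher and 15 lower. The direction of the day 3 split thus depended on which controls were used. The day 1.5 count of 16 fell to 5, 8, 5 and 5 without control replicate 1 or 2 or knockout replicate 1 or 2. The median difference of the list was -0.011, 0.0068 and 0.017 on the 3 days.

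Among the 15 other ligands, Wnt6 was called higher (0.38 ± 0.10, limma adjusted p = 0.0191) and Wnt10b lower (-0.23 ± 0.07, adjusted p = 0.0410) on day 6. That was 13.3% of them, beside 32.5% of all genes. The Wnt6 call was lost without either control or without replicate 2 of the knockout cells, and the Wnt10b call without any one of the 4 arrays, with values of 0.33 to 0.44 and -0.26 to -0.19 over the 4 arrays left out in turn. Wls, which carries Wnt proteins to the cell surface, rose by 0.73 ± 0.10 on day 6 (117 ± 15.3 in controls, 192 ± 2.11 in knockout cells, limma adjusted p = 0.000485). Porcn, which attaches the lipid to Wnt proteins, fell by 0.49 on the log2 scale (401 ± 22.3 against 286 ± 16.4, limma adjusted p = 0.00100). The Porcn probe set has probes shared with other transcripts.

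Of the 12 other receptor genes, 5 were called higher and 2 lower on day 6 (58.3%, beside 32.5% of all genes). Fzd6, a Frizzled receptor, rose by 1.32 ± 0.10 (138 ± 0.416 in controls, 346 ± 41.1 in knockout cells, limma adjusted p = 1.01e-05), with 1 of its 3 probe sets called, and their mean gave 0.43 (adjusted p = 0.00100). Its rise on days 1.5 and 3 was 0.77 and 0.62 (limma adjusted p = 0.00180 and 0.00162), but 0.14 and 0.21 with that mean (adjusted p = 0.256 and 0.0571). Fzd9 fell by 0.39 on the log2 scale on day 6 (89.8 ± 0.374 against 68.7 ± 6.87, limma adjusted p = 0.00237).

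Of 14 secreted inhibitors, 3 were called higher on day 6 and 0 lower (21.4%, beside 32.5% of all genes). Apcdd1, a membrane-bound inhibitor, rose by 1.18 ± 0.06 (136 ± 0.179 against 308 ± 12.6, limma adjusted p = 9.71e-07), with 5 of its 6 probe sets called the same way. Wif1, which binds Wnt proteins outside the cell, read 9.20 ± 0.0124 in controls and 24.7 ± 7.89 in knockout cells (1.39 ± 0.21, limma adjusted p = 0.000938). Its controls lay below 10.5, the 10th percentile of all deposited intensities. The main probe sets of both genes, and the only one of Notum, have probes shared with other transcripts. Notum, which removes the lipid from Wnt proteins, rose by 0.82 ± 0.08 on day 3 (limma adjusted p = 8.45e-05), when its controls stood at 200.4 ± 5.21 and knockout cells at 355 ± 23.1. On day 1.5 it fell by 0.45 on the log2 scale (319 ± 33.0 in controls, 233 ± 6.10 in knockout cells, limma adjusted p = 0.00760), a call lost without replicate 2 of the knockout cells (-0.42, adjusted p = 0.0556) and with only the arrays compared (adjusted p = 0.0814). The knockout cells of day 3 overlapped the day 1.5 controls, at 0.16 ± 0.08 on the log2 scale.

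In the cytoplasm, 6 of 19 genes were called higher and 4 lower on day 6 (52.6%, beside 32.5% of all genes). Gsk3a, a kinase of the destruction complex, rose by 0.49 ± 0.06 (521 ± 22.1 against 729.8 ± 21.5, limma adjusted p = 0.000263). Btrc, which marks beta-catenin for breakdown, fell by 0.72 on the log2 scale (205 ± 11.4 against 124 ± 6.05, limma adjusted p = 0.000352). For Btrc, 2 of its 5 probe sets were called. Among TCF/LEF factors and cofactors, 4 of 13 were higher and 1 lower (38.5%, beside the same 32.5%). The repressor genes Tle2 and Tle3 rose by 0.69 ± 0.07 and 0.50 ± 0.07 (limma adjusted p = 5.45e-05 and 0.000429). Lef1, a factor that is itself a Wnt target, fell by 0.78 on day 1.5 and rose by 0.77 ± 0.08 on day 3 (limma adjusted p = 0.000658 and 0.000135). Its controls averaged 199 on day 1.5 and 99.8 on day 3, and its knockout cells 116 and 170. On each of these days 1 of its 2 probe sets was called.

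Planar polarity genes, of the branch to which Wnt5a belongs, gave 2 higher and 4 lower of 13 on day 6 (46.2%, beside 32.5% of all genes). Daam1, a formin that links Dishevelled to actin, fell by 1.62 on the log2 scale (601 ± 11.7 against 196 ± 3.42, limma adjusted p = 6.61e-08). On day 3 it fell by 1.16 (limma adjusted p = 1.31e-06), where 1 of its 3 probe sets was called the opposite way and their mean gave -0.21 (adjusted p = 0.0905). Celsr1, a polarity cadherin, fell by 0.42 on day 6 (limma adjusted p = 0.00270), and Intu, a polarity effector of cilia, rose by 0.81 ± 0.07 (limma adjusted p = 2.85e-05).

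Of 14 other target genes, 3 were higher and 2 lower on day 6 (35.7%, beside 32.5% of all genes). Myc rose by 0.78 ± 0.05 on day 3 and 0.65 ± 0.05 on day 6 (limma adjusted p = 1.95e-05 and 2.27e-05), with shared probes in its only probe set. Tnfrsf19 rose by 0.91 ± 0.12 and 0.77 ± 0.12 (limma adjusted p = 0.000626 and 0.00102). The day 3 controls stood at 283 for Myc and 46.0 for Tnfrsf19, and the day 6 controls at 681 and 95.4. Against the controls of day 1.5, the knockout cells of day 3 had 0 of the 14 target genes called higher and 4 lower. Ccnd1, the cell cycle gene for cyclin D1, fell by 0.24 on day 6 (limma adjusted p = 0.00391). Axin2 and Sp5, at -0.06 and -0.76 on day 6, did not share the direction of Myc and Tnfrsf19.

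**Figure D4:**
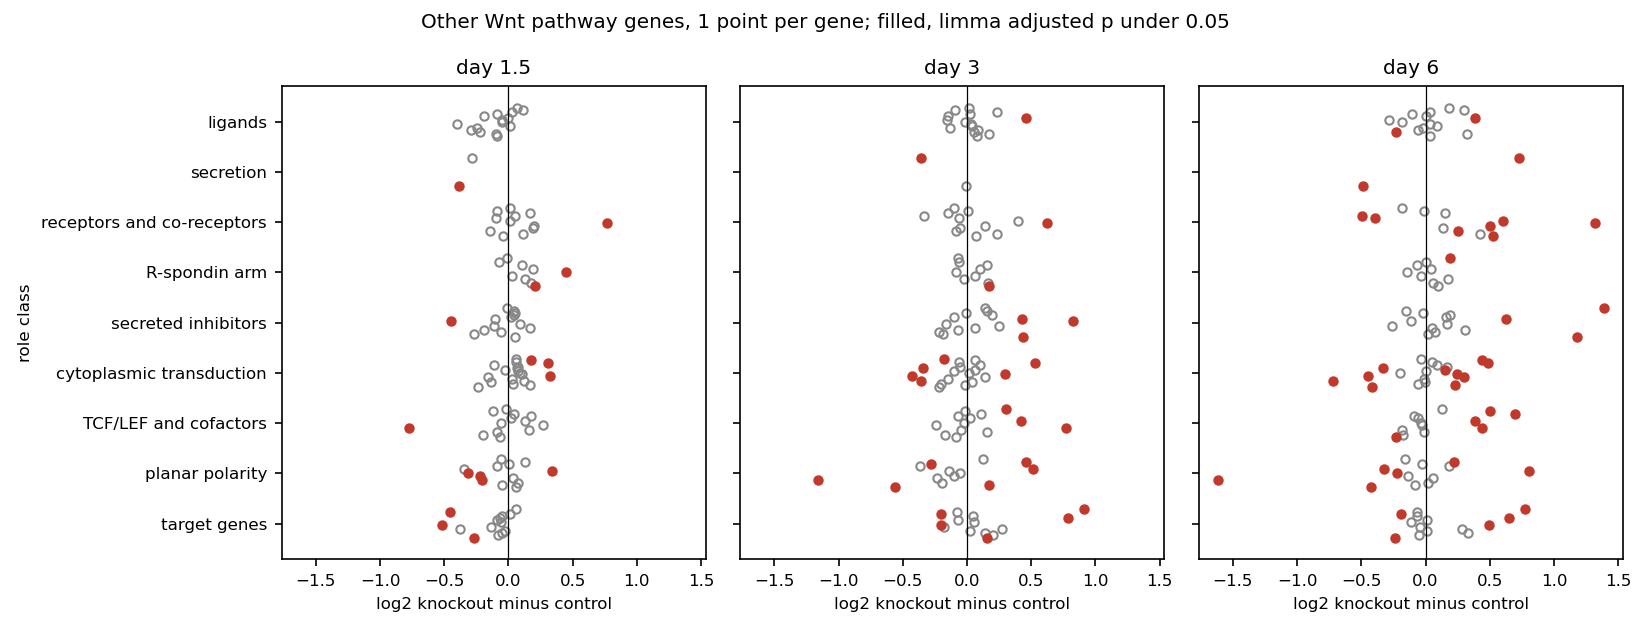
Log2 fold change of knockout over control for the 111 other Wnt pathway genes by role on days 1.5, 3 and 6; each point is 1 gene, with filled points past the threshold (limma adjusted p under 0.05). On day 6, 26 genes are called higher and 15 lower, and called genes lie on both sides of 0 in most roles.

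Over the 12 arrays, the genes most like Wnt5a by Pearson correlation of log2 intensity were Gprc5b (r = 0.979), Tmem9b (0.977), Zfp512b (0.973), Gli1 (0.968) and Adad2 (0.965). These values describe 12 arrays that share 6 group levels, and 1 of these 5 genes (Gli1) was also among the 5 highest by Spearman correlation. Gli1, a target gene of Hedgehog signalling, read 378 ± 27.6 in controls and 824 ± 13.9 in knockout cells on day 6. Among the other members the correlation with Wnt5a was highest for Ror1 (0.74), then Fzd7 (0.45), Wnt3 (0.33), Wnt4 (0.29), Axin2 (0.18), Fzd2 (0.18), Wnt7b (0.028), Sp5 (-0.05) and Ror2 (-0.39). In the order of all genes Ror1 stood at place 1710.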

How the data were processed

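RNA of 12 samples was measured on Affymetrix arrays, 2 for each genotype and day. The deposited intensities, on a linear scale, were produced by the authors through RMA (named, without a version, in the submitters' processing notes). RMA corrects background, normalizes between arrays and summarises probes. They ran from 5.511 to 34993, and log2 was taken before any test. Precision is limited by how few arrays there are. Detection calls and scan batches were not used here. Of 45101 probe sets, the platform annotation gave 34958 a single symbol, 932 several and 9211 none; 34754 matched a RefSeq gene table (GRCm38.p6) by gene ID and 0 symbols were updated. The genome build of the probe sets is not given in the sources used here. The brightest probe set stood for each of 18194 genes, with no filter on dim genes.

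The model was limma 3.58.1 under R 4.3.3 (a mean per group over all 12 arrays, eBayes, 6 residual and 3.04 prior degrees of freedom), with Benjamini-Hochberg adjustment over all genes, or over all probe sets for the dimmer probe sets, called at 0.05. The members, the gene lists and the rule for named genes were chosen with earlier results of these data known. The rule takes all members, Thap11, the 5 genes most correlated with Wnt5a and, per role and day, up to 2 other Wnt genes with the largest rise and 2 with the largest fall whose arrays do not overlap; those whose calls ended without 1 array are mostly left unnamed. Kremen2, Tcf7, Prickle3 and T of the lists had no probe set of their own. Alternatives were a replicate block, only the arrays compared, a trend and robust prior, a filter that drops the dimmest 40%, all probe sets, the mean over a gene's probe sets, median centring, quantile normalization, day 1.5 controls for day 3, and leaving out each array. The fit was also run on simulated data, as a check of the code. Genes were changed there only in the knockout cells of day 3, unlike in these data, so no result here rests on it.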

Additional observations from a re-analysis of the deposited data

Results flagged for a closer look

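The knockout effect differed between days 3 and 1.5 by the limma interaction test for 4 of the members. The difference (day 3 minus day 1.5, log2) was 1.23 for Wnt5a, 0.59 for Wnt4, 0.78 for Sp5 and -0.53 for Wnt7b. Among the other Wnt genes named by the rule, the difference was positive for Lef1 (1.55), Notum (1.27), Prickle1 (0.86), Tnfrsf19 (0.86), Myc (0.85), Ccnd1 (0.42), Apcdd1 (0.38), Porcn (0.38), Vangl1 (0.33), Jun (0.32) and Tcf7l1 (0.29). It was negative for Daam1 (-0.96), Csnk1e (-0.75), Celsr1 (-0.61), Rspo1 (-0.53), Btrc (-0.48) and Intu (-0.48). Only named genes past the threshold are listed. They were named partly for large effects on days 1.5 and 3, which enter this difference, so for them it is a description and not a further test. Over all 111 other Wnt genes, 14 were called higher and 8 lower in this comparison, 19.8% beside 15.0% of all genes. For Daam1 and Csnk1e, 1 probe set was called the opposite way on day 3. The controls of day 3 enter each of these values.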

How the results depend on the processing

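The rise of Wnt5a on day 3 passed the threshold under every alternative that gave it a value except with day 1.5 controls (0.44). A filter on the dimmest 40% of genes gave Wnt5a, Wnt3, Ror1 and Sp5 no value. Day 1.5 controls in place of day 3 controls reversed Wnt4 (-0.44), Wnt7b (0.13), Ror1 (-0.37), Fzd7 (0.074) and Sp5 (-0.80) on day 3. Called genes between genotypes on day 1.5 went from 1803 to 455 with only the arrays compared, 2756 with a trend and robust prior and 714 to 833 without 1 array; other Wnt genes went from 16 to 3 and 5 to 8. On day 3, 4250 became 2506 with only the arrays compared and 2727 to 3396 without 1 array. Control day 3 against day 1.5 went from 4966 to 2829 with only the arrays compared, 7615 over all probe sets and 3156 to 4113 without 1 array; the knockout cells went from 3757 to 2150 and 1998 to 2387. The difference between days 3 and 1.5 gave 2723 calls, and 1724 to 2430 without 1 array. Control day 6 against day 3 went from 5000 to 2760, 7851 over all probe sets and 3072 to 4177. Control day 6 against day 1.5 went from 285 to 0 with only the arrays compared by limma (2486 at an unadjusted p under 0.05, 2773 with all arrays), 894 with a trend and robust prior, 660 without dim genes, 187 with the mean of probe sets and 18 to 51 without 1 array. Calls over the members' probe sets on days 1.5 and 3 went from 5 to 2 with only the arrays compared and 2 to 5 without 1 array. Fewer arrays enter when only those compared are used or 1 is left out; for the other settings the cause was not tested.

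The replicate numbers did not pair the arrays: deviations of same-numbered arrays of a day correlated at -0.0038, -0.057 and 0.028, and over all pairs of groups the highest value was 0.17 (controls of days 1.5 and 3). With a replicate block, 1657 genes were called on day 1.5 and 4111 on day 3, and the difference between days for Wnt5a (1.23) had an adjusted p of 0.0534.

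The mean of all probe sets reversed Ror2 between control days (0.076), Wnt7b between knockout days (0.042), Fzd7 on day 1.5 (-0.092) and Axin2 in the difference between days (0.016). Median centring reversed Wnt3 (0.060) and Wnt7b (0.072) between knockout days and Fzd7 on day 1.5 (-0.0094), and quantile normalization reversed Wnt7b (0.088). Without 1 array, small differences ranged across 0. On day 1.5 these were Ror1 (-0.12 to 0.074) and Fzd2 (-0.15 to 0.11), and on day 3 Wnt3 (-0.13 to 0.19) and Wnt4 (-0.077 to 0.20). Between knockout days they were Wnt3 (-0.20 to 0.13), Wnt4 (-0.057 to 0.22), Wnt7b (-0.077 to 0.028), Fzd2 (-0.067 to 0.12) and Fzd7 (-0.021 to 0.086), and for the difference between days Wnt3 (-0.28 to 0.045). Of these reversed results, Ror2 between control days and Wnt7b on day 3 had passed the threshold.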
